A study of Drosophila melanogaster with 31 samples.

Results

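The RNA of transposable elements was compared between ovarian somatic cells (OSC) of *Drosophila melanogaster* in which Piwi was knocked down (Piwi-KD, 1 sample) and cells of the same line treated with siRNA against EGFP as the control (EGFP-KD, 2 samples). These are 3 of the 7 RNA samples and of the 31 samples in the series. The other RNA samples were knockdowns of Nxf2 (2) and of Panx (2). Both enter the level filter, are given side by side and are set directly against Piwi-KD. OSC are a cultured line of ovarian follicle cell origin and hold no germ cells. All groups were grown at 26 degrees in the same medium and received siRNA by nucleofection, and poly(A)+ RNA was sequenced. Every element entry of the RNA table, 129 in all, was considered, and the 65 with a mean of at least 1 RPKM (reads scaled by entry length in kilobases and by library total) over the 4 knockdowns were compared.

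Piwi is a nuclear Argonaute protein that carries small RNAs (piRNAs) matching transposable elements. In follicle cells, which use Piwi but not the germline amplification cycle of piRNAs, the loaded protein recognises nascent element transcripts, and silencing factors that include Panx and Nxf2 then repress the locus and lay down the histone mark H3K9me3. The pathway is best known there for restraining gypsy-type retrotransposons, several of which carry an envelope gene (env) and can pass from follicle cells to the germline. Long terminal repeat (LTR) retrotransposons copy themselves through RNA, as do the non-LTR retrotransposons, whereas DNA transposons move as DNA.

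The table holds 1 column per knockdown. The Piwi-KD column therefore has no replicate check, and whether the EGFP-KD column pools its 2 samples is not stated. Library totals were 9852335 reads for EGFP-KD, 8968998 for Piwi-KD, 9130187 for Panx-KD and 9094999 for Nxf2-KD. Each ratio below is of reads per library total, with an exact 95% interval that covers counting error only and compares these libraries, not the conditions. Higher or lower means a ratio of at least 2, or at most its inverse, with an interval that excludes 1. The table lists elements alone, so the level of the piwi transcript and markers of follicle or germ cells were not analysed here. In bulk RNA, more transcript per cell and more expressing cells cannot be told apart.

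Element RNA made up a much larger part of the Piwi-KD library than of the control. Element entries took 5.68% of EGFP-KD reads (Wilson interval 5.66 to 5.69%) and 16.4% of Piwi-KD reads (16.4 to 16.4%), a 2.89-fold higher share. Without COPIA, the most abundant entry, the shares were 1.94% and 5.80%, and their ratio was 2.99. How reads that match several entries were counted is not given, so these sums may hold a read more than once. The Wilson intervals take each read as counted once. The shares of the net gain given below rest on the same sums. In Piwi-KD cells 28 of the 65 entries were higher (43.1%) and 2 were lower (3.08%). Of the 35 that were neither, 10 had an interval above 1, 10 had one below 1 and 15 had one spanning 1. The median ratio of all 65 was 1.5. Expressed relative to that median entry, a shift of 0.59 on the log2 scale, 23 entries were higher and 7 lower. Elements themselves enlarge the Piwi-KD total. Totals without element reads multiplied every ratio by 1.13, and by them 31 entries were higher and 1 was lower.

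**Figure D1:**
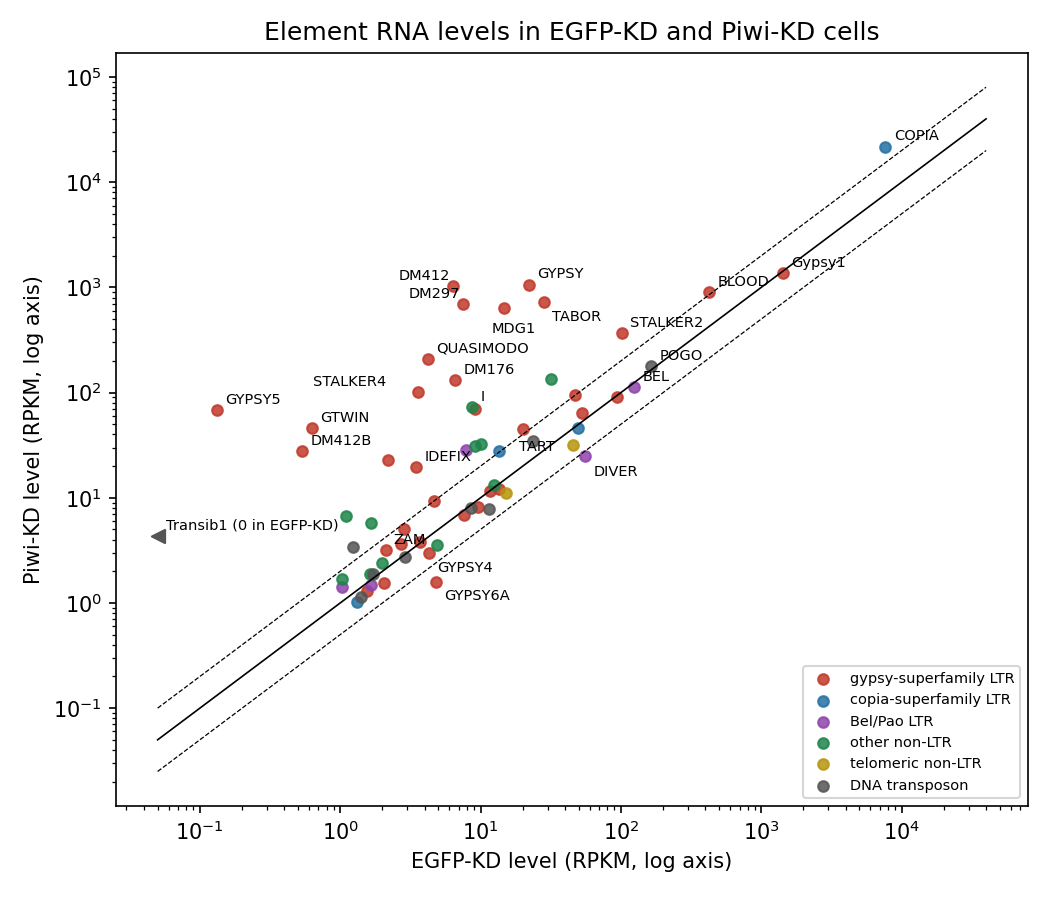
Level of each of the 65 entries in EGFP-KD (x axis) and Piwi-KD (y axis) cells in RPKM on log axes, 1 point per entry, coloured by class, with equality as a solid line and 2-fold either way as dashed lines; the triangle is Transib1, which had 0 reads in EGFP-KD and is drawn at the left edge. A group of gypsy-superfamily entries that ranged from 6.37 to 28.3 RPKM in the control stood at 644 to 1061 RPKM in Piwi-KD cells, while Gypsy1 and BEL lay near equality.

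The gypsy superfamily made up 34 of the 65 entries compared and held 17 of the 28 higher ones, a share of its members near the 43.1% over all entries. The groups within it were assigned by hand from entry names, with earlier results of these data known. Their counts and medians therefore describe the groups as drawn and are no test of a difference between them. The env-bearing entries, 9 compared, included 7 that were higher. Their median ratio was 48.2, and that over all entries, these 9 included, was 1.5. In the group around MDG1 and DM412, the 6 entries past the level filter, of 7 in the table, were all higher, with a median ratio of 36.0. In the MDG3 group the 2 entries past the filter, of 3 in the table, were higher. A low entry can pass the filter through a high Piwi-KD level. Of the 17 gypsy-superfamily entries not grouped further, 2 were higher and 1 was lower, and the median ratio was 0.99. The env-bearing entries together took 0.698% of all element reads in EGFP-KD and 9.38% in Piwi-KD cells, and the MDG1 and DM412 group took 6.99% and 13.2%.

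GYPSY5, an env-bearing entry, had the highest ratio of reads, a rank that rests on its low control count. It had 9 reads in EGFP-KD cells and 4214 in Piwi-KD cells, or 0.132 and 67.7 RPKM, against 2.37 RPKM in Panx-KD and 1.93 in Nxf2-KD cells. The ratio was 514 (270.7 to 1126), its wide interval set by the 9 control reads. With a pseudocount of 1 RPKM its log2 ratio was 5.92, from 9.01 without one, and those of DM412 (7.13) and DM297 (6.36) were higher. GTWIN, also env-bearing, stood at 0.631 RPKM in EGFP-KD, 1.66 in Panx-KD, 1.73 in Nxf2-KD and 45.8 in Piwi-KD cells. Its Piwi-KD ratio was 72.6 (53.8 to 100.6). For both, the Piwi-KD value stood far above the other 3.

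DM297 stood at 7.51 RPKM in EGFP-KD, 276 in Panx-KD, 202 in Nxf2-KD and 697 in Piwi-KD cells, a ratio of 92.9 (84.9 to 101.7). QUASIMODO stood at 4.22, 26.7, 19.5 and 208.9 RPKM in the same order, a ratio of 49.6 (44.0 to 56.0). GYPSY, the best studied endogenous retrovirus of flies, stood at 22.0, 638, 647 and 1061 RPKM, a ratio of 48.2 (45.8 to 50.7). It had the third highest Piwi-KD level per length of all entries. DM176 stood at 6.62, 13.3, 12.9 and 131 RPKM, a ratio of 19.8 (18.1 to 21.8). IDEFIX stood at 3.47, 4.66, 4.37 and 19.5 RPKM, a ratio of 5.61 (4.87 to 6.48). The Panx-KD and Nxf2-KD ratios to the control were 2.0 and 1.95 for DM176 and 1.34 and 1.26 for IDEFIX, so for both the Piwi-KD column stood well above the other 3.

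Among the env-bearing entries compared, 2 were not higher. ZAM stood at 2.10 RPKM in EGFP-KD, 3.22 in Panx-KD, 2.93 in Nxf2-KD and 3.16 in Piwi-KD cells, a ratio of 1.5 (1.23 to 1.85). NOMAD stood at 9.59 RPKM in EGFP-KD and 8.18 in Piwi-KD cells, a ratio of 0.853 (0.759 to 0.957). The other 2 env-bearing entries fell under the level filter. ROVER had 17 reads in EGFP-KD and 115 in Piwi-KD cells, a ratio of 7.43 (4.44 to 13.2). TIRANT had 0 reads in all 4 columns, where a count of 0 allows up to 0.304 RPM (reads scaled by library total alone) in EGFP-KD and 0.334 in Piwi-KD cells.

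In the MDG1 and DM412 group, DM412 stood at 6.37 RPKM in EGFP-KD, 226 in Panx-KD, 167 in Nxf2-KD and 1035 in Piwi-KD cells. Its ratio was 162 (147.7 to 178.7). DM412B, a short entry of 571 bases, had 3 reads in EGFP-KD and 142 in Piwi-KD cells, a ratio of 52.0 (17.4 to 255). How reads that match several entries were counted is not given in the sources used here, so the DM412 and DM412B values may share reads. MDG1 stood at 14.7 RPKM in EGFP-KD, 852 in Panx-KD, 891 in Nxf2-KD and 644 in Piwi-KD cells, a ratio of 43.8 (41.2 to 46.7). It was the one higher entry of the 28 whose highest level was not in Piwi-KD cells. STALKER3, the entry of this group under the filter, had 0 reads in both EGFP-KD and Piwi-KD cells.

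STALKER4 stood at 3.56 RPKM in EGFP-KD and 100.3 in Piwi-KD cells, a ratio of 28.2 (24.8 to 32.2). STALKER2 was already abundant in the control, at 101.5 RPKM, and stood at 339 in Panx-KD, 327 in Nxf2-KD and 370 in Piwi-KD cells, a ratio of 3.65 (3.55 to 3.74). BLOOD, the third most read entry of the control, stood at 428 RPKM in EGFP-KD, 729 in Panx-KD, 708 in Nxf2-KD and 902 in Piwi-KD cells, a ratio of 2.11 (2.08 to 2.14). The members with the highest control levels in this group thus had its lowest ratios. Across all 65 entries the rank correlation of the control level with the log2 ratio was -0.157, a description over entries that share both libraries, and the control level is itself the denominator of the ratio.

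Past the filter, the MDG3 group held MDG3, with 9.06 RPKM in EGFP-KD and 70.0 in Piwi-KD cells and a ratio of 7.72 (7.01 to 8.53), and BLASTOPIA, with 19.9 and 44.6 RPKM and a ratio of 2.23 (2.07 to 2.42). MICROPIA, its entry under the filter, had 7 and 9 reads, a ratio of 1.41 (0.468 to 4.46). Among the gypsy-superfamily entries not grouped further, TABOR stood at 28.3 RPKM in EGFP-KD, 408 in Panx-KD, 380 in Nxf2-KD and 719 in Piwi-KD cells, a ratio of 25.4 (24.3 to 26.6). Gypsy2 stood at 2.18 RPKM in EGFP-KD and 22.9 in Piwi-KD cells, a ratio of 10.5 (8.85 to 12.5). The other entries of this group included abundant ones near equality. Gypsy1, second in control reads, had 100366 reads in EGFP-KD and 87438 in Piwi-KD cells, a ratio of 0.957 (0.948 to 0.966). GYPSY12, also among the 5 most read entries of the control, stood at 94.0 and 90.1 RPKM, a ratio of 0.959 (0.927 to 0.991). Both of these ratios lie above 1 when library totals without element reads are used.

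**Figure D2:**
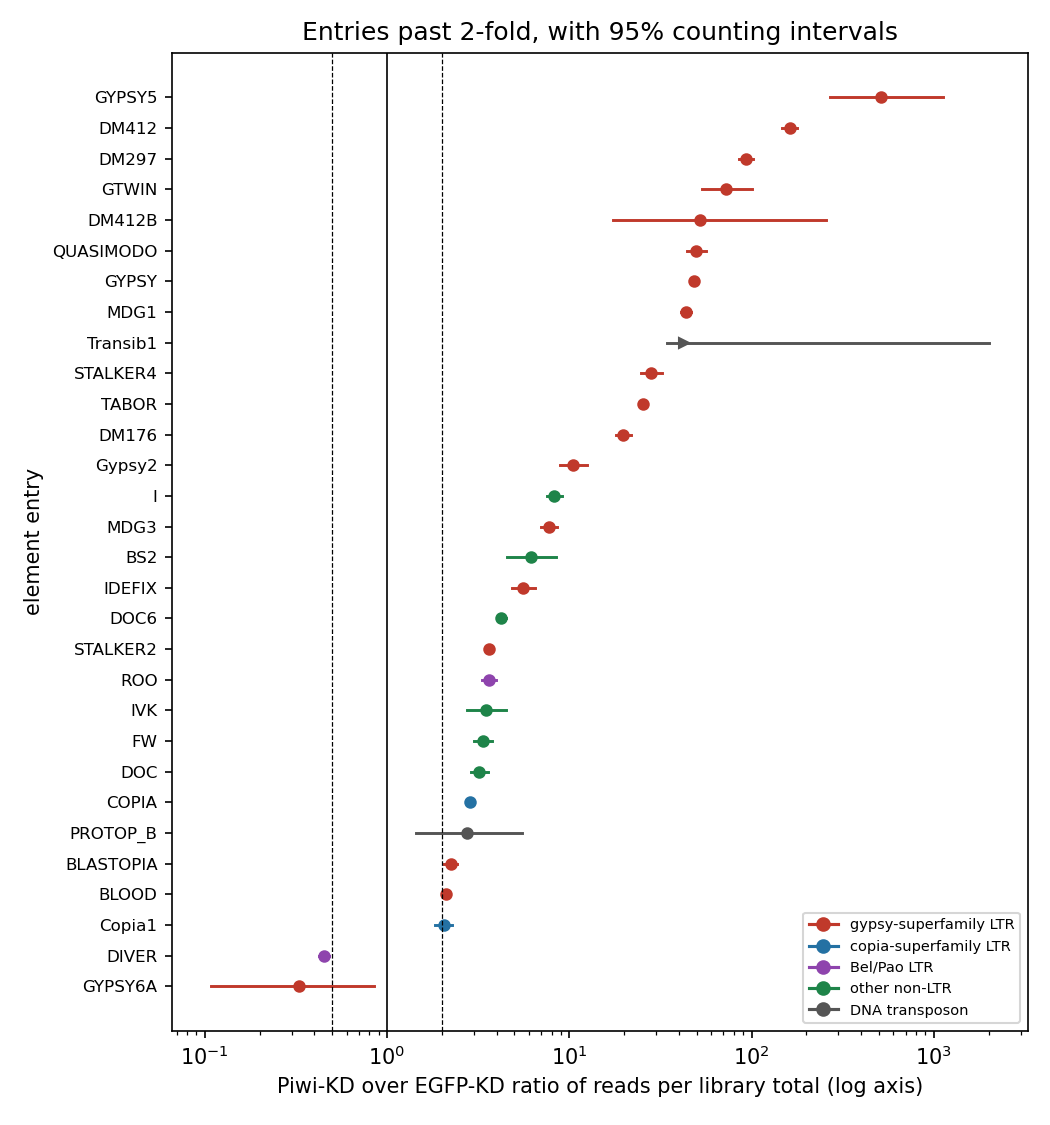
Ratio of Piwi-KD to EGFP-KD reads per library total for the 28 higher and 2 lower entries, on a log axis, with 95% counting intervals as lines and colour by class; dashed lines mark 2-fold either way, and the triangle marks Transib1, whose ratio is computed against a floor of 3 reads and whose interval has no upper end. The upper 13 entries lie past 10-fold, 12 of them of the gypsy superfamily.

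COPIA, the entry that gives the copia superfamily its name, dominated the element RNA of both libraries. It stood at 7672 RPKM in EGFP-KD, 12858 in Panx-KD, 11767 in Nxf2-KD and 21824 in Piwi-KD cells, a ratio of 2.84 (2.83 to 2.86). COPIA supplied 64.1% of the net gain of 107487 element RPM between EGFP-KD and Piwi-KD cells. GYPSY supplied 6.76%, DM412 6.66%, TABOR 4.40%, DM297 4.22%, MDG1 4.12%, BLOOD 3.09% and STALKER2 1.95%, so these 8 entries held 95.3% of it. GYPSY5, with the highest ratio of reads, supplied 0.436%. The order of entries by added reads and by ratio therefore differed. Copia1 stood at 13.5 RPKM in EGFP-KD, 27.5 in Panx-KD, 27.4 in Nxf2-KD and 27.6 in Piwi-KD cells, a ratio of 2.04 (1.84 to 2.26). The remaining copia-superfamily entries, COPIA2 and DM1731, had ratios of 0.771 and 0.937.

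**Figure D3:**
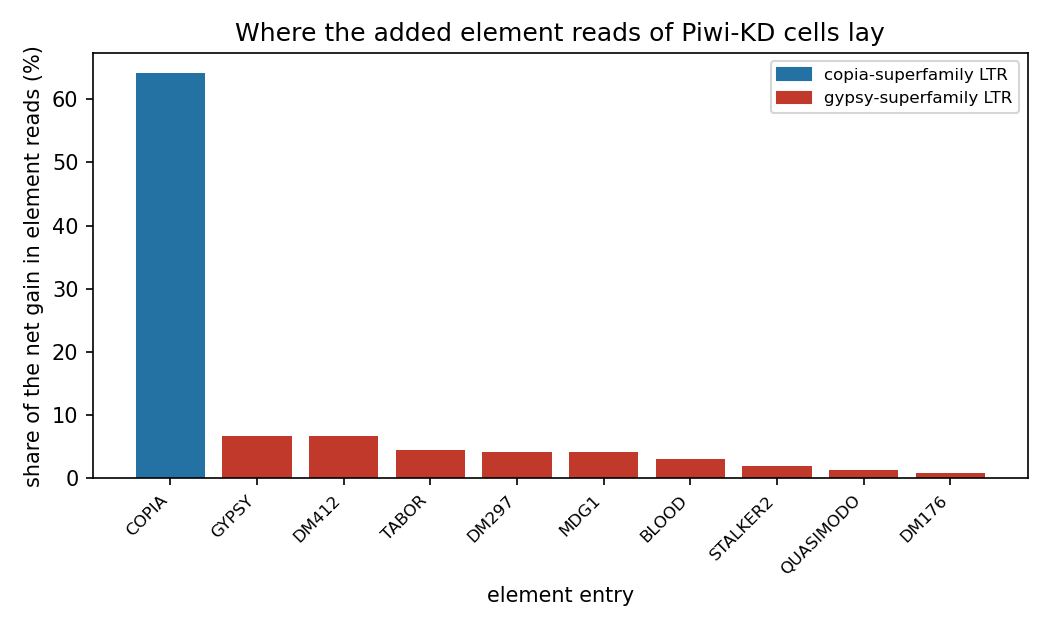
Share of the net gain in element reads (RPM) from EGFP-KD to Piwi-KD, in percent, for the 10 entries with the largest gains, as bars coloured by class. COPIA took 64.1%, and GYPSY and DM412, next in order, took 6.76% and 6.66%.

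Of 5 Bel/Pao entries, 1 was higher and 1 was lower, beside 43.1% and 3.08% over all entries. ROO stood at 7.88 RPKM in EGFP-KD, 20.4 in Panx-KD, 19.4 in Nxf2-KD and 28.7 in Piwi-KD cells, a ratio of 3.64 (3.34 to 3.98). DIVER stood at 55.8 RPKM in EGFP-KD, 27.9 in Panx-KD, 28.1 in Nxf2-KD and 25.2 in Piwi-KD cells, a ratio of 0.451 (0.423 to 0.481). All 3 knockdown columns of DIVER lay near one another and under the control column, and this control is the same in each. With totals without element reads the DIVER log2 ratio was -0.97, which misses the 2-fold threshold. The other lower entry was GYPSY6A, a gypsy-superfamily entry of 420 bases with 20 reads in EGFP-KD and 6 in Piwi-KD cells, a ratio of 0.330 (0.108 to 0.851).

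Non-LTR retrotransposons outside the telomeric elements were higher in 6 of 11 cases, a share near the 43.1% over all entries, with a median ratio of 3.20. At a 4-fold threshold 3 of them were higher. The I element, the agent of a classical form of hybrid sterility in flies, stood at 8.74 RPKM in EGFP-KD, 26.5 in Panx-KD, 24.3 in Nxf2-KD and 72.4 in Piwi-KD cells, a ratio of 8.28 (7.52 to 9.15). BS2 stood at 1.10, 2.37, 2.26 and 6.78 RPKM, a ratio of 6.18 (4.58 to 8.50). DOC6 stood at 31.7 RPKM in EGFP-KD and 134 in Piwi-KD cells, a ratio of 4.24 (3.99 to 4.51). IVK had a ratio of 3.48 (2.73 to 4.48), FW one of 3.35 (3.00 to 3.75) and DOC one of 3.20 (2.88 to 3.57). DOC stood at 10.1 RPKM in EGFP-KD, 19.5 in Panx-KD, 19.4 in Nxf2-KD and 32.3 in Piwi-KD cells. R1 and R2, which insert into ribosomal RNA genes, were under the level filter, with 12 and 8 reads for R1 and 3 and 3 for R2 in EGFP-KD and Piwi-KD cells.

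The telomeric elements, which maintain the chromosome ends of flies, were not higher. TART stood at 45.7 RPKM in EGFP-KD, 39.3 in Panx-KD, 38.0 in Nxf2-KD and 31.9 in Piwi-KD cells, a ratio of 0.697 (0.67 to 0.725). TART_B1 had a ratio of 0.733 (0.677 to 0.792). Both intervals lay below 1 and neither ratio reached 2-fold, and the ratios stayed below 1 with totals without element reads. Under the filter, HETA had 30 reads in EGFP-KD and 11 in Piwi-KD cells, a ratio of 0.403 (0.182 to 0.827), and TAHRE had 9 and 15, a ratio of 1.83 (0.751 to 4.74).

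DNA transposons were higher in 2 of 9 cases, both with few reads, beside 43.1% over all entries. With a mean of at least 1 RPKM over the other 3 conditions 1 was higher, and with a mean of at least 10 RPKM 0 were. Transib1 had 0 reads in EGFP-KD, 40 in Panx-KD, 38 in Nxf2-KD and 117 in Piwi-KD cells. Against a floor of 3 reads in the control library its ratio was 42.8, with an interval from 34.3 and no upper end. Transib1 passed the level filter only through its Piwi-KD level. PROTOP_B had 14 and 35 reads in EGFP-KD and Piwi-KD cells, a ratio of 2.75 (1.44 to 5.53). POGO, the DNA transposon with the highest control level, stood at 163.9 RPKM in EGFP-KD and 179.8 in Piwi-KD cells, a ratio of 1.10 (1.05 to 1.15). Of the 64 entries under the filter, 16 had no reads in any column and 31 had enough for a ratio. TRANSIB2 was 1 of 4 such entries past 2-fold higher, with 1 read in EGFP-KD and 71 in Piwi-KD cells and a ratio of 78.0 (13.6 to 3123), beside ROVER, FB4 (4.76) and BS (3.47). HETA was the 1 past 2-fold lower.

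Some entries stood close to the 2-fold threshold. Just inside it lay Copia1 at 2.04, BLOOD at 2.11 and BLASTOPIA at 2.23. Just outside lay INVADER4 at 1.99 (1.86 to 2.14), INVADER1 at 1.98 (1.63 to 2.41), INVADER6 at 1.80 (1.44 to 2.27) and DMCR1A at 1.66 (1.12 to 2.48). The 3 INVADER entries passed it with totals without element reads. Relative to the median entry, BLASTOPIA, BLOOD, COPIA, Copia1 and PROTOP_B no longer passed it, and TART, TART_B1, GYPSY4, DOC2 and POGON1 passed it on the lower side. With a pseudocount of 1 RPKM, PROTOP_B and Copia1 fell short of 2-fold, with log2 ratios of 0.97 and 0.98. With one of 10 RPKM, BS2, IVK, Transib1, BLASTOPIA, DIVER and GYPSY6A fell short as well.

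The Nxf2-KD and Panx-KD columns share the EGFP-KD column as their denominator, so likeness between the knockdown ratios is no independent result. By the same rule 22 of 65 entries (33.8%) were higher in Panx-KD and 22 (33.8%) in Nxf2-KD cells. Piwi-KD was also set directly against each of them. Against Panx-KD, 14 entries were at least 2-fold higher in Piwi-KD cells with an interval above 1, and against Nxf2-KD likewise 14. No entry was 2-fold lower in either direct comparison, and each of these columns again stands for 1 value without a replicate check.

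The direct ratio to Panx-KD was 28.6 (24.3 to 33.9) for GYPSY5, 27.6 (22.7 to 33.8) for GTWIN, 9.90 (9.24 to 10.6) for DM176, 7.83 (7.44 to 8.25) for QUASIMODO, 4.58 (4.49 to 4.66) for DM412 and 4.18 (3.67 to 4.77) for IDEFIX. It was 1.66 for GYPSY, 1.76 for TABOR, 1.09 for STALKER2 and 1.0 for Copia1. MDG1 was the reverse, at 0.756 (0.746 to 0.766) against Panx-KD and 0.722 (0.713 to 0.732) against Nxf2-KD. The higher entries thus ran from 0.756 to 28.6 times their Panx-KD level.

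**Figure D4:**
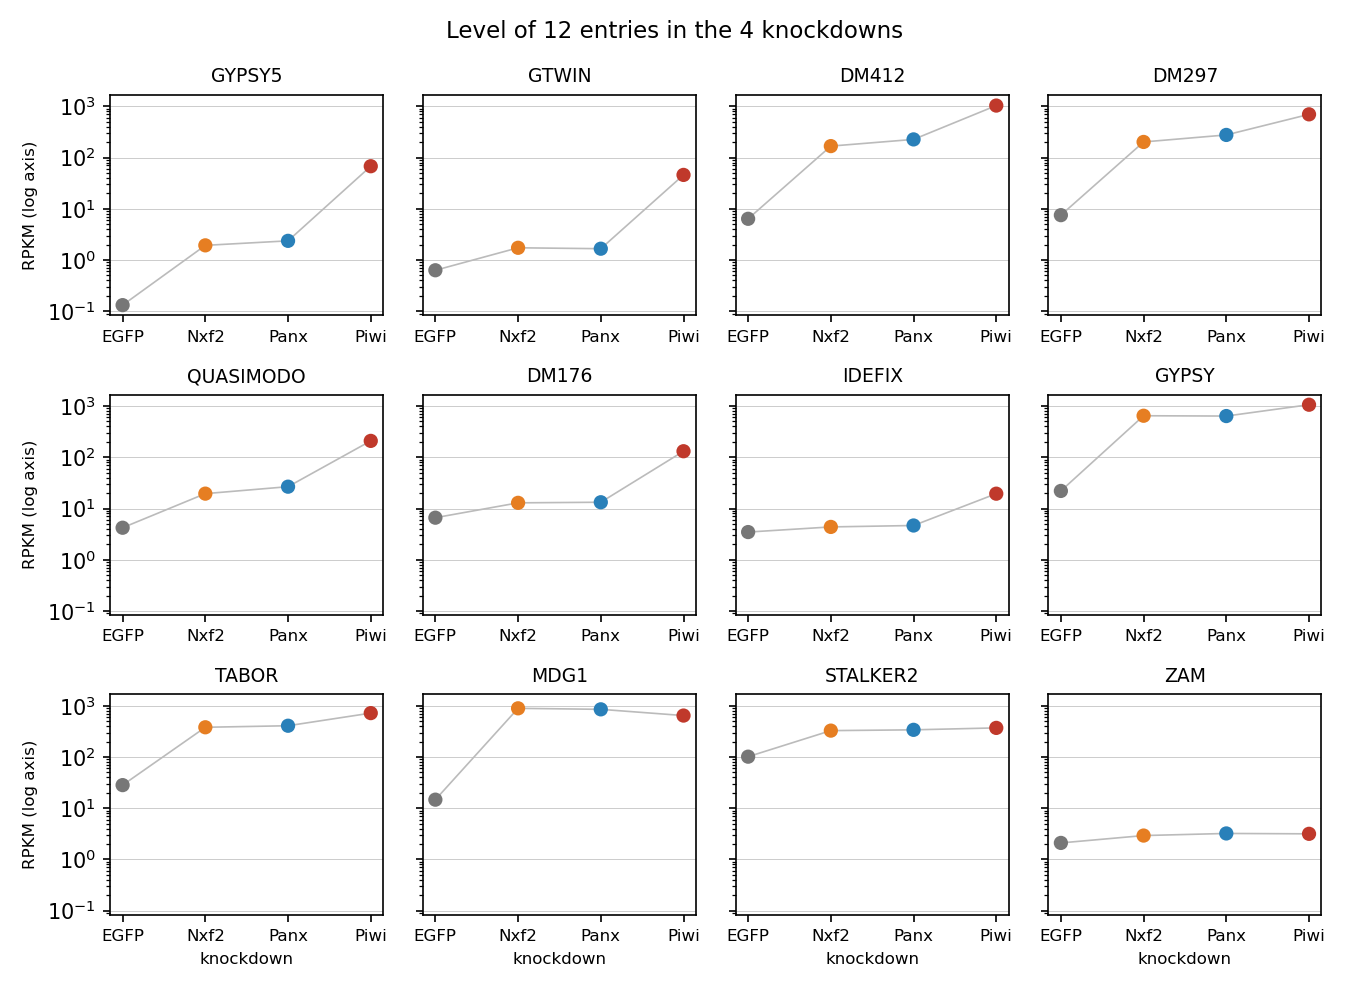
Level in RPKM, on a log axis shared by all panels, of 12 entries in the EGFP, Nxf2, Panx and Piwi knockdowns, 1 point per column of the table and no error bars because each is 1 value. GYPSY5, GTWIN, DM176 and IDEFIX stand apart in Piwi-KD, STALKER2 is at 327 to 370 RPKM in the 3 knockdowns, MDG1 is highest in Nxf2-KD and ZAM stays between 2.10 and 3.22 RPKM.

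A second set of libraries under the same contrast was the size-matched input RNA of a crosslinking and immunoprecipitation (CLIP) experiment, sequenced without pulldown from EGFP-KD and Piwi-KD cells. These cells carried myc-tagged Nxf2 and were also depleted of endogenous Nxf2, in both arms. Each arm has 2 samples and 1 column, of 2438071 reads for EGFP-KD and 2237643 for Piwi-KD. Element reads were 0.873% and 1.46% of these libraries, and 0.440% and 0.987% without COPIA. Of 72 entries with a mean of at least 1 RPM over the libraries of that table, 18 were higher (25%) and 0 were lower (0%). Of the 65 entries compared in RNA, 58 were among them, with 17 higher and 0 lower, or 9 and 3 relative to the median entry.

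Of the 26 RNA-higher entries with input values, 15 were higher in the input too, against 2 of the 32 other entries. Relative to the median input entry, 9 of the RNA-higher entries were higher. Without that centring the count was 10 of 11 among entries past 10-fold in RNA. It was 5 of 15 among those from 2-fold to under 10-fold. The 1 of 11 that was not higher was GTWIN, with 0 and 5 input reads. Its ratio against a floor of 3 reads was 1.82, with an interval that includes 1. Over the 58 entries Pearson's r of the log2 ratios was 0.674 and Spearman's rho 0.562, descriptions across entries that share the libraries, and many input counts were small. MDG1 had 41 and 3070 input reads in EGFP-KD and Piwi-KD cells, a ratio of 81.6 (60.0 to 113.9). DM412 had 21 and 639, a ratio of 33.2 (21.5 to 53.9). GYPSY had 255 and 2404, a ratio of 10.3 (9.02 to 11.7), and Gypsy2 had 1 and 50, a ratio of 54.5 (9.34 to 2194). GYPSY5 had 3 and 22, a ratio of 7.99 (2.40 to 41.7). STALKER4 had an input ratio of 2.40 (1.63 to 3.60) against 28.2 in RNA, and DM176 one of 2.61 (1.91 to 3.61) against 19.8.

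COPIA differed between the readouts. It had 10547 input reads in EGFP-KD and 10504 in Piwi-KD cells, a ratio of 1.09 (1.06 to 1.11), against 2.84 in poly(A)+ RNA. It made up 49.6% of input element reads in EGFP-KD and 32.2% in Piwi-KD cells, while in poly(A)+ RNA it made up 65.8% and 64.7%. BLOOD, another abundant entry, had an input ratio of 2.51 (2.36 to 2.67), against 2.11 (2.08 to 2.14) in poly(A)+ RNA. DIVER had an input ratio of 0.744 (0.540 to 1.02), an interval that spans 1. Among the 58 entries, the 2 higher in input and not in RNA were NOMAD, with 3 and 12 reads, and DMCR1A, with 27 and 54. GYPSY6, under the RNA level filter, was higher in input with 30 and 64 reads, a ratio of 2.32 (1.48 to 3.72), and had an RNA ratio of 1.08. The input cells differed from the RNA cells in their depletion of endogenous Nxf2. The libraries also differed in kind, size-matched CLIP input against poly(A)+ RNA, and in read total. These differences go together and cannot be told apart here, and the part of each in the differences between readouts was not tested.

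**Figure D5:**
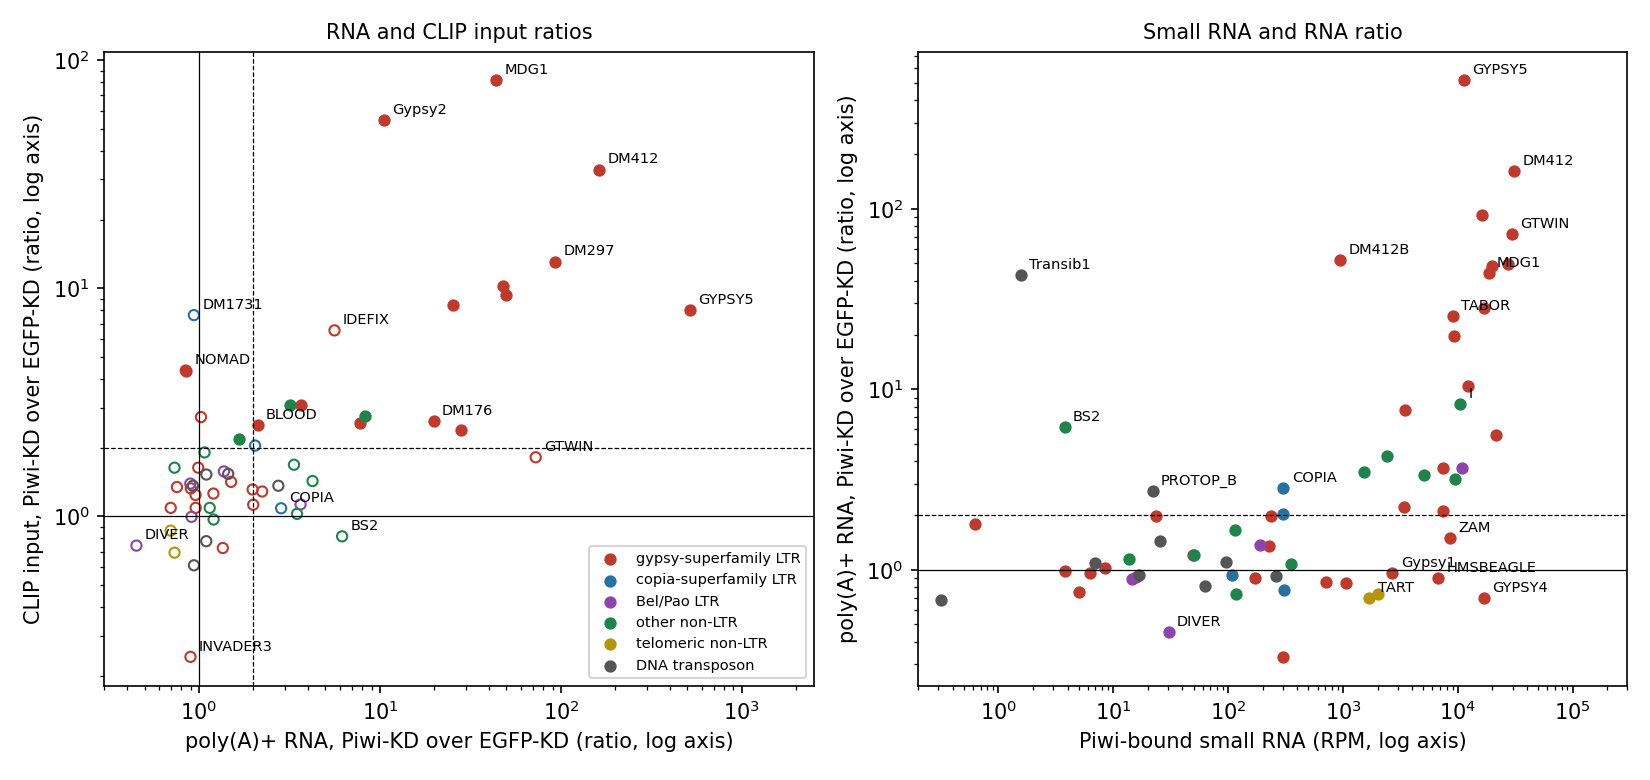
Left, CLIP input ratio against poly(A)+ RNA ratio (Piwi-KD over EGFP-KD, log axes) for the 58 entries with both, filled where the input entry was higher; right, poly(A)+ RNA ratio against Piwi-bound small RNA in RPM for the 65 entries, with solid lines at 1 and dashed lines at 2-fold. On the left MDG1, Gypsy2 and DM412 lie highest and COPIA lies at an input ratio of 1.09; on the right most higher entries lie above 1000 RPM, with Transib1, BS2 and PROTOP_B to the far left.

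Piwi-bound small RNAs, sequenced in 1 library of 3187937 reads from OSC, were not used in choosing the entries or in their ratios. The 28 higher entries had a median of 9133 small RNA RPM, and the 13 past 10-fold one of 16378. The other 37 had a median of 108 RPM. At 1000 RPM or more were 22 of the 28 higher entries and 7 of the 37 others. Over the 65 entries Spearman's rho of small RNA RPM with the log2 RNA ratio was 0.534, a description across entries of unequal length. DM412 was first of all entries with 31006 RPM, followed by GTWIN with 29585, QUASIMODO with 27121 and IDEFIX with 21437.

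The relation had exceptions on both sides. Higher entries with under 100 RPM were Transib1 with 5 small RNA reads, BS2 with 12 and PROTOP_B with 70. Entries with 1000 RPM or more that were not higher were GYPSY4 with 16765 RPM, ZAM with 8554, HMSBEAGLE with 6782, Gypsy1 with 2692, TART_B1 with 2026, TART with 1695 and QUASIMODO2 with 1062. GYPSY4 stood at 4.28 RPKM in EGFP-KD, 3.31 in Panx-KD, 2.86 in Nxf2-KD and 2.99 in Piwi-KD cells, a ratio of 0.698 (0.575 to 0.846). COPIA, with 64.1% of the net gain in element RNA, had 303.0 RPM. COPIA and Copia1 each had 966 small RNA reads and COPIA2 had 970, so these 3 counts may share reads.

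In the CLIP experiments, RNA bound by Piwi in OSC, or by myc-Nxf2 in EGFP-KD cells depleted of endogenous Nxf2, was set against its size-matched input. By the same 2-fold rule 56 of 90 entries (62.2%) were enriched with Piwi and 39 of 73 (53.4%) with Nxf2. Among RNA-higher entries 25 of 26 were enriched with Piwi, with a median enrichment of 13.9, against 20 of 35 others with a median of 3.00. With Nxf2 the numbers were 23 of 26 with a median of 9.40 and 12 of 31 with a median of 2.0. These counts also depend on read depth, because intervals are wider where reads are few. At least 10 Nxf2 pulldown reads were present for 23 of the 26 RNA-higher entries and 18 of the 31 others. Among entries with that many reads the medians were 10.1 and 2.46. Whether low depth reduced the count of 12 was not tested. MDG1 was 82.8-fold enriched with Piwi and 10.8-fold with Nxf2, and COPIA 7.36-fold and 2.27-fold. ZAM, which was not higher in Piwi-KD RNA, was enriched 25.6-fold and 7.43-fold. The Piwi ratios rest on 7 input reads for MDG1 and 2 for ZAM, against 5357 for COPIA. The ZAM interval with Piwi, 6.86 to 214.5, contains that of COPIA, 7.16 to 7.57. The MDG1 interval with Piwi lay above that of COPIA.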

How the data were processed

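Poly(A)+ RNA of OSC was given by the authors as read counts per element entry with 1 column per knockdown, beside deposited RPKM values (counts scaled by entry length and library total). The CLIP and small RNA tables hold deposited counts and RPM. Per the submitters' processing notes, the RNA tools named include TopHat2 2.0.14, DESeq2, and both Bowtie 1.0.1 and Bowtie2 2.2.9. The counting of reads that match several entries is not given in the sources used here.

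Each library total was computed by dividing counts by their normalised values. Ratios of reads per total carry exact 95% conditional Clopper-Pearson intervals (Python 3.11.15, scipy 1.17.1). The calculation was run on simulated independent Poisson counts, the model that these intervals assume. That run checks the calculation and does not show that the model holds for these data. The intervals and the floor of 3 reads cover counting error only, since reads are not independent molecules. No ratio was given where both sides had 3 reads or fewer. With 1 Piwi-KD sample, no p-value compares conditions. Classes were assigned by hand from entry names. Named were all entries past the threshold or between 1.5-fold and 2-fold, the 5 with most control reads and a fixed list; other entries were chosen after their values were seen. The entries, classes and lists were chosen with earlier results of these data known. Alternatives were other totals, centring, pseudocounts, level filters and fold thresholds.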

Additional observations from a re-analysis of the deposited data

How the results depend on the processing

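No single entry changed direction past the threshold under an alternative tried. The count of higher entries, 28 of 65 as reported, was 22 to 33 under the other alternatives and 18 at a 4-fold threshold. The level filters also changed the number of entries compared, so these counts are not shares of one set. Higher were 32 of 96 entries with no filter and 23 of 38 with a mean of at least 10 RPKM. With at least 1 RPKM in EGFP-KD they were 24 of 61. The 2 lower entries were 1 with totals without element reads, 7 when centred on the median entry, 0 at a pseudocount of 10 RPKM, 1 with a mean of at least 10 RPKM and 0 at 4-fold. The median log2 ratio was 0 by construction when centred, 0.23 at that pseudocount and 1.59 with that filter. Without COPIA the element shares were 5.80% in Piwi-KD and 1.94% in EGFP-KD cells, with a ratio of 2.99. In the CLIP input, centring gave 9 higher and 3 lower entries, and 9 of those higher in RNA. A filter on the mean of the other 3 knockdowns, added after the data were seen, gave 27 higher. No paired analysis was possible because each condition has 1 column, and no replicate could be left out for the same reason. Few control reads limit GYPSY5, DM412B, Transib1 and PROTOP_B.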
